A study of Homo sapiens with 14 samples.

Results

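The large subunit of the cytosolic ribosome is built from ribosomal RNAs and a fixed set of proteins, most of them encoded by single genes that are spread over the genome. H3K4me2 at the ends of 44 of these genes was examined here (RPL3 to RPL41, with RPLP0, RPLP1 and RPLP2). They are 44 of the 20056 protein-coding genes in the RefSeq table (GRCh38.p14). The genes were taken by name from a list, and their regions were the deposited H3K4me2 regions that overlapped the RefSeq span of a gene or lay within 5 kb of it, 65 of 54942 regions in all. All 44 genes had at least 1 gene-end region, meaning a region that came within 1 kb of an end of the gene. The 65 regions were 48 gene-end regions, 16 flanking regions between 1 kb and 5 kb outside a gene, and 1 inner region, in RPL31. All 48 gene-end regions, the inner region and 14 of the 16 flanking regions held enough counts to be tested.

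H3K4me2, dimethylation of lysine 4 of histone H3, marks active promoters and distal regulatory elements. ChIP-seq of this mark was done in MDA-MB-231 cells, a human line grown from a triple-negative breast cancer. Cells in culture received OICR-9429, a small molecule that occupies a pocket of WDR5, or its solvent DMSO, for 24 to 96 hours, with no time or dose per library in the sources used here. Each treatment had 3 ChIP libraries, all with 5% Drosophila chromatin added before the antibody, numbered as biological replicates in their titles. How the cultures were kept apart is not stated, so p-values measure the spread between these libraries, which may be partly technical.

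WDR5 is a scaffold found in every MLL/SET1 complex, the enzymes that methylate H3K4. It also sits on chromatin at a subset of ribosomal protein genes, which are textbook targets of blockers of its WIN pocket, and which members belong to that subset was not measured in these data. Ribosomal protein genes are transcribed at high levels in dividing cells, and their messenger RNAs usually begin with a cytosine and a run of pyrimidines, the terminal oligopyrimidine motif through which the mTOR pathway controls their translation.

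The libraries held 16483098 to 23509413 counts, of which over 99% lay in the 51156 tested regions. Values below are normalised CPM, counts scaled to TMM library sizes, so they are relative to all regions. The spike-in was not used here, and a change common to every region would not show. The line was checked at marker genes, although H3K4me2 at a gene end is not expression. VIM, CD44, EGFR, AXL and ZEB1, genes of mesenchymal or basal cells, had gene-end regions of 62.4 to 144 normalised CPM with DMSO, but the basal keratin gene KRT14, on the same list, had none, unlike the rest of that list. The luminal gene ESR1, the leukocyte gene PTPRC and the endothelial gene PECAM1 had none either. The luminal genes PGR, GATA3 and FOXA1, the T cell gene CD3E and the fibroblast gene COL1A1, of cell types other than the labelled one, did have gene-end regions, of 11.7 to 76.2. These levels grow with the width of the region. Per kb, the mesenchymal or basal genes had 7.93 to 12.4 normalised CPM with DMSO. The genes of other cell types had 8.48 to 13.9 per kb, so density did not set the labelled line apart.

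The regions of the large subunit genes were wide and mostly of modest density. Each gene was represented by its gene-end region with the highest mean count. These 44 regions were 3749 to 16140 bp wide (median 8218.5 bp), against a median of 3654 bp over 12311 tested gene-end regions of protein-coding genes. The genes themselves are short, with a median span of 5034 bp, and for 33 of the 44 a single region reached both ends. For 24 genes the region covered the whole span. Per kb of region, the DMSO level ran from 3.59 to 12.8 normalised CPM, with a median of 6.96 against 8.11 for all gene-end regions, and 15 of the 44 lay above that median. In counts per region, which grow with width, 33 of the 44 lay in the top decile of all tested regions.

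The densest regions lay at RPL10A, a protein of the flexible L1 stalk (12.8 ± 2.004 normalised CPM per kb, SD over 3 DMSO libraries), RPL23A (11.02 ± 2.32), RPLP0 (10.6 ± 1.68) and RPL28 (9.97 ± 1.86). Neighbours in this order differed by less than the spread of the libraries. The lowest densities were those of RPL13 (3.59 ± 0.664), RPL36 (4.05 ± 0.605), RPL17 (4.17 ± 0.673) and RPL7A (4.51 ± 0.822). RPL13 lay at percentile 5.38 and RPL10A at percentile 90.1 of the gene-end regions of protein-coding genes.

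**Figure D1:**
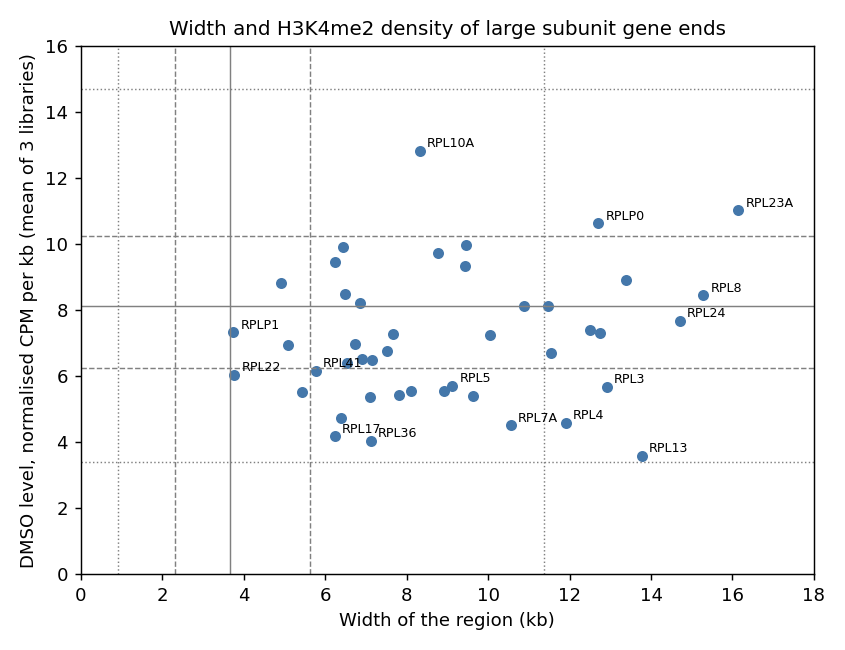
Width of the region of each large subunit gene (x axis, kb) against its DMSO level (y axis, normalised CPM per kb, mean of 3 libraries), 1 point per gene. Grey lines are the percentiles 5 and 95 (dotted), 25 and 75 (dashed) and 50 (solid) of 12311 gene-end regions of protein-coding genes; all 44 points lie to the right of the median width of 3654 bp and 29 lie under the median density of 8.11.

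Start sites were listed by RefSeq (GRCh38.p14) for 37 of the 44 genes, and for 34 of them the representative region held a listed start site. Around these sites the regions were lopsided: they reached a median of 1837 bp upstream and 5850.5 bp downstream, and 29 of 34 reached farther downstream. RPL38 and RPL17 differed, since their regions began 404 bp and 430 bp downstream of the first listed start site. The strongest region of RPL6 lay at the upstream end of its annotated span, shared with the phosphatase gene PTPN11, and a second region held the listed RPL6 start sites.

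The sequence at the start site carries the motif named above in most of these genes. The 20 bases before the start and the first 10 transcribed bases, from the RefSeq promoter table of GRCh38.p14, are shown 5′ to 3′ for 9 members that begin with the pyrimidine motif and for RPL10A, RPL4 and RPL9, whose listed starts do not. Capitals mark the transcribed bases.
RPL41: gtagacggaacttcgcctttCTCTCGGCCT
RPL12: cttgtccgcgcgatttccggCCTCTCGGCT
RPLP0: ggcacgcgcgggcgcgaggcCCTTCTCTCG
RPLP1: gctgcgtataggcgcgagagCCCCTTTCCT
RPLP2: gcctcttgcgtcggcgccttCCTTTTCCTC
RPL22: ctgcgtagttcgctcacctcCCTTTCTAAC
RPL28: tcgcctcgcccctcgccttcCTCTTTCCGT
RPL39: gctcgttcttccgccagcttCCCTCCTCTT
RPL37A: cctgcgcaccgcgtctcttcCTTTCTGGGC
RPL10A: gcgcatgcgcaagacatgctAGTCTCTTTT
RPL4: acatatacagcgggagtggtAAGCACTTCC
RPL9: tacaagtacgtaatgacgacAGACGTTCTT
A listed start at C followed by at least 4 pyrimidines was present in 27 of 37 members (73.0%) and in 988 of 15843 protein-coding genes of the table (6.24%). The small subunit genes had it in 20 of 26 (76.9%) and the assembly factors of the large subunit, which are not ribosomal proteins, in 6 of 43 (13.95%). The run of pyrimidines from the start was longest in RPL39, 19 bases, and in RPL7A, 16 bases.

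Around the start, 6 motifs were looked for on both strands, over 250 bases before and 50 after it. None was in more than 20 of the 37 members. GGGCGG, the SP1 type box, was in 20 of 37 members (54.1%) against 64.3% of all genes. CCGGAAGT, the ETS type site, was in 5 (13.5% against 6.97%), and AAGATGGC, the YY1 type site, in 4 (10.8% against 4.66%). In no member did AAGATGGC lie within the 250 bases before a listed start. TATAAA was in 3 (8.11% against 12.4%), the E-box CACGTG in 2 (5.41% against 10.9%) and the NRF1 site in 1 (2.70% against 1.99%). The median GC content was 59.3%, against 62.3% for all genes, and the median ratio of observed to expected CpG was 0.915 against 0.743. A match is a description of the letters and shows no binding.

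The 250 bases before the first listed start are given for the 3 genes whose gain passed under every scaling and with any library left out (RPL41, RPL12 and RPL19) and for RPL37A, whose fold change was near 0. All 4 stretches lie inside the H3K4me2 region of the gene, and capitals mark matches to the motifs above. The stretches of RPL12 and RPL37A hold none.
RPL41, chr12:56116383-56116632, plus strand: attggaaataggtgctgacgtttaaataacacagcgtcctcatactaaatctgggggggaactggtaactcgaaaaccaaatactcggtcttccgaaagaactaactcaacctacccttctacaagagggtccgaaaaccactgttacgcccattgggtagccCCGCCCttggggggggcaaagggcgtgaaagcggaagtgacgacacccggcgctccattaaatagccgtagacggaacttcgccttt
RPL12, chr9:127451407-127451656, minus strand: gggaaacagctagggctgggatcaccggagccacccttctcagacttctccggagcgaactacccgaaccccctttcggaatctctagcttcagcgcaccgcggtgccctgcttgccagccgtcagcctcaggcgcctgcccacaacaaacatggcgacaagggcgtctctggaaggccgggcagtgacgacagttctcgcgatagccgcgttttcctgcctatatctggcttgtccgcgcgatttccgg
RPL19, chr17:39200033-39200282, plus strand: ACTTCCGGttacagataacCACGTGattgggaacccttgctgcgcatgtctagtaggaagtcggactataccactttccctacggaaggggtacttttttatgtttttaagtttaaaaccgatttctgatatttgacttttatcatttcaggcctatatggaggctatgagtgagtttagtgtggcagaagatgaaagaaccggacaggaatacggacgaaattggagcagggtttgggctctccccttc
RPL37A, chr2:216498594-216498843, plus strand: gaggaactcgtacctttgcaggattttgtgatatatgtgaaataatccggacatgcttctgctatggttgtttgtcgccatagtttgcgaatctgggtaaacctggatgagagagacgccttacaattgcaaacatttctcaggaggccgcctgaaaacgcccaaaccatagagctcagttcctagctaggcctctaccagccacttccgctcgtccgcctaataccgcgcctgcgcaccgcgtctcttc

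The design asked how blocking WDR5 changes H3K4me2. With OICR-9429 the large subunit genes gained H3K4me2 relative to all regions, by about as much as gene ends in general. Of their 48 gene-end regions 24 were called higher and 0 lower by edgeR's quasi-likelihood test at an adjusted p under 0.05. Among all gene-end regions of protein-coding genes 48.2% were called higher and 3.43% lower, and among all tested regions 17% and 14%. Of the gene-end regions in the top decile of abundance 64.7% were called higher. The median log2 fold change of the 48 regions was 0.37, beside 0.36 for all gene-end regions, 0.40 for those in the top decile of abundance and 0.03 for all regions. In 30 of the 48 regions the lowest treated library exceeded the highest control. That held for 58.5% of all gene-end regions and 74.8% of those in the top decile of abundance. The top decile included 34 of the 48. DESeq2's Wald test likewise called 0 of the 48 lower, and 0 were lower at an unadjusted p under 0.05.

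The calls depended on the scaling and on single libraries, and so did those of gene ends in general. With loess offsets, fitted so that fold changes have no trend over region strength, 3 of the 48 were called higher and 1 lower, against 7.01% and 4.05% of all gene-end regions, and the median was 0.05 beside 0.11. With library totals in place of TMM, 12 were higher and 1 lower, against 21.1% and 6.97%. That scaling moved the median of all regions from 0.03 to -0.17, that of all gene ends to 0.17 and that of the 48 regions to 0.18. With DESeq2's size factors 20 were higher, against 40.1%.

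Single libraries moved the count as well. Without DMSO replicate 1, 5 of the 48 were higher (6.04% of all gene-end regions), without DMSO replicate 2, 4 were (5.26%), and without DMSO replicate 3, 36 were (69.2%). Among the treated libraries, the count was 13 without replicate 1 (24.5%), 13 without replicate 2 (26.1%) and 14 without replicate 3 (35%).

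**Figure D2:**
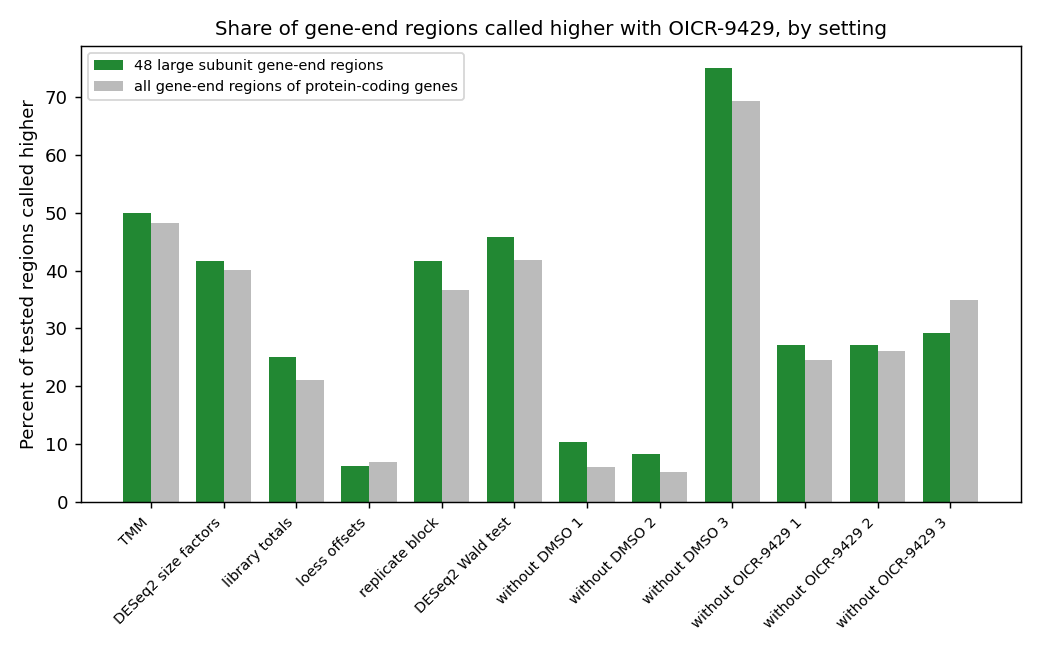
Percent of tested gene-end regions called higher (y axis, adjusted p under 0.05) under each setting (x axis), for the 48 large subunit regions (green) and for all gene-end regions of protein-coding genes (grey). The green bar falls from 50.0% with TMM to 6.25% with loess offsets and 8.33% without DMSO replicate 2, and the grey bar from 48.2% to 7.01% and 5.26%.

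The control libraries kept nearly the same order at these genes, and the treated libraries varied more. DMSO replicate 2 was the lowest of the 6 libraries in 43 of the 44 representative regions, and DMSO replicate 3 was the highest DMSO library in all 44. OICR-9429 replicate 1, the deepest library, was the highest of the 6 in 34, OICR-9429 replicate 3 in 8 and DMSO replicate 3 in 2. Over all tested gene-end regions DMSO replicate 2 was the lowest in 75.03%, DMSO replicate 3 the highest control in 86.5% and OICR-9429 replicate 1 the highest of all in 62.8%. The part of these library differences in the calls was not tested beyond leaving each library out.

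As a share of each library's counts, the 48 regions held 0.312%, 0.295% and 0.343% in DMSO replicates 1 to 3 and 0.380%, 0.345% and 0.360% in OICR-9429 replicates 1 to 3. The groups did not overlap, but DMSO replicate 3 and OICR-9429 replicate 2 were nearly level. The mean rose from 0.317% ± 0.0244 (SD, n = 3) to 0.361% ± 0.0173, while the share of all gene-end regions went from 48.8% ± 2.54 to 54.3% ± 2.19. Within the counts at gene ends, the share of the large subunit genes was 0.649% ± 0.0161 in controls and 0.665% ± 0.0177 in treated libraries, a difference of 0.0164 percentage points, about the size of either SD.

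**Figure D3:**
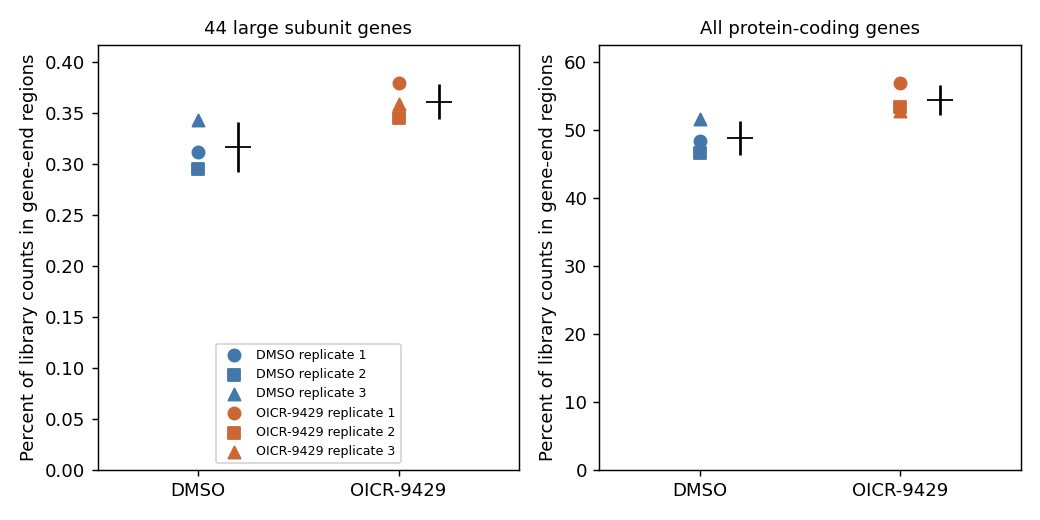
Percent of each library's counts in gene-end regions (y axis, from 0) for the 44 large subunit genes (left) and for all protein-coding genes (right), by treatment (x axis). Each symbol is 1 library and the bar beside it the mean with its SD over 3 libraries; on the left the DMSO libraries lie between 0.295% and 0.343% and the OICR-9429 libraries between 0.345% and 0.380%.

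The acidic stalk, which recruits the GTPases of translation, is made of RPLP0, RPLP1 and RPLP2, with RPL12 at its base. All 4 of its genes lay higher with OICR-9429 in every library, and 3 of the 4 passed the test. This count and those of the groups that follow stand beside 48.2% called higher among all gene-end regions and 64.7% among those in the top decile of abundance. Differences between the groups were not tested. RPL12 (chr9:127447097-127453547) stood at 61.4, 56.8 and 73.5 normalised CPM in the DMSO replicates and at 109, 86.8 and 97.3 in the OICR-9429 replicates. The groups did not overlap, with DMSO replicate 3 the nearest to the treated libraries. RPL12 rose by 0.61 on the log2 scale (SE 0.13, adjusted p = 0.00594, edgeR), from 63.9 ± 8.64 to 97.7 ± 11.1, and was still called with loess offsets (0.28, adjusted p = 0.0269).

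RPLP0, the stalk protein that anchors the others, had 127, 119 and 159 normalised CPM with DMSO and 198, 174 and 203 with OICR-9429 (chr12:120190422-120203123). The lowest treated library stood above the highest control. Its log2 fold change was 0.51 (SE 0.13, adjusted p = 0.0109) and 0.18 with loess offsets, where it was not called (adjusted p = 0.115), nor was it without DMSO replicate 1 or DMSO replicate 2. RPLP2 (chr11:803519-816032) had 89.3, 79.3 and 109 normalised CPM with DMSO and 139.6, 112 and 114 with OICR-9429. The groups came close, between DMSO replicate 3 and OICR-9429 replicate 2. RPLP2 rose by 0.39 (SE 0.14, adjusted p = 0.0385), a call kept in 1 of the 6 fits with a library left out and lost with loess offsets (0.06). RPLP1, whose region was the narrowest of the 44 (chr15:69452078-69455826), had 27.1, 24.1 and 31.2 normalised CPM with DMSO and 39.3, 31.5 and 34.4 with OICR-9429. The groups nearly touched, and the fold change of 0.35 (SE 0.14) missed the threshold (adjusted p = 0.0613).

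RPL5 and RPL11 form a particle with the 5S ribosomal RNA, and when free they bind MDM2 and so stabilise p53. Neither was called. RPL5 was the only member whose representative region had a fold change under 0. Its region (chr1:92831369-92840491) held 51.9, 47.9 and 56.5 normalised CPM with DMSO and 45.3, 46.8 and 45.9 with OICR-9429. All treated libraries lay under all controls, though OICR-9429 replicate 2 and DMSO replicate 2 were close. Its log2 fold change was -0.18 (SE 0.12, adjusted p = 0.256) with TMM. It was -0.50 with loess offsets (adjusted p = 0.00252), -0.38 with library totals (adjusted p = 0.00587) and -0.28 with a mean count of at least 50 (adjusted p = 0.0452), all called lower. With 1 library left out it stayed between -0.29 and -0.12 and was never called. The region also touched an end of DIPK1A, so its counts are not those of RPL5 alone.

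RPL11 (chr1:23691474-23697872) had 29.9, 27.2 and 33.8 normalised CPM with DMSO and 33.0, 33.0 and 33.9 with OICR-9429. DMSO replicate 3 lay within the treated range. The log2 fold change was 0.14 (SE 0.13, adjusted p = 0.424) and turned to -0.06 with library totals and -0.13 with loess offsets.

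RPL3, RPL4, RPL8, RPL10, RPL17 and RPL39 lie at or near the catalytic centre and the exit tunnel of the nascent chain. Of these 6 genes 3 were called higher. RPL10, which joins the subunit last and helps to shape the transfer RNA sites, went from 35.3, 28.4 and 42.5 normalised CPM to 66.8, 48.4 and 50.3 (chrX:154396386-154401484). The groups did not overlap, and OICR-9429 replicate 1 stood well above the other treated libraries. The log2 fold change was 0.64 (SE 0.16, adjusted p = 0.011), between 0.41 and 0.80 with 1 library left out. The call was lost without DMSO replicate 2 and with loess offsets (0.33, adjusted p = 0.0584). A second RPL10 region beyond the other gene end held 3 to 17 counts per library and was not called (adjusted p = 0.108).

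RPL3, whose product reaches towards the catalytic centre, had 67.6, 64.1 and 88.0 normalised CPM with DMSO and 117, 96.0 and 105 with OICR-9429 (chr22:39308036-39320943). No control reached the lowest treated library. Its fold change of 0.54 (SE 0.14, adjusted p = 0.0115) was 0.21 with loess offsets and not called (adjusted p = 0.0841), nor was it called without DMSO replicate 1 or DMSO replicate 2. RPL17 (chr18:49485793-49492035), at the narrow part of the tunnel, had 25.8, 22.0 and 30.4 normalised CPM with DMSO and 32.7, 32.3 and 38.8 with OICR-9429. The groups did not overlap, and it rose by 0.41 (SE 0.14, adjusted p = 0.0399), a call kept in 2 of the 6 fits with a library left out and lost with loess offsets (0.16). RPL4, which lines the tunnel (chr15:66495324-66507237), had 53.7, 47.1 and 63.3 normalised CPM with DMSO and 72.9, 63.7 and 71.6 with OICR-9429. Treated replicate 2 hardly exceeded the highest control, and the fold change of 0.34 (SE 0.13) missed the threshold (adjusted p = 0.0549). RPL8 at 0.37 and RPL39 at 0.26 (-0.05 with loess offsets) missed it too (adjusted p = 0.0508 and 0.133).

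RPL19, RPL23A, RPL26, RPL31 and RPL35 surround the mouth of the tunnel, where targeting factors and chaperones dock. Of these 5 genes 3 were called higher. RPL19 (chr17:39195017-39203780) had 81.8, 76.9 and 97.1 normalised CPM with DMSO and 136, 118 and 125 with OICR-9429. The groups were apart by more than the range within either. RPL19 rose by 0.57 (SE 0.12, adjusted p = 0.00602) and by 0.23 with loess offsets (adjusted p = 0.0318), and was called with each library left out.

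RPL23A, the docking site of the signal recognition particle, had the most counts of the 44 regions, with 169, 145 and 219 normalised CPM against 291, 239 and 252 (chr17:28713822-28729961). Its region of 16140 bp also touched ends of NEK8, RAB34 and TLCD1. No control reached the treated libraries. RPL23A rose by 0.55 (SE 0.14, adjusted p = 0.0117), and was not called with loess offsets (0.22) or without DMSO replicate 1 or DMSO replicate 2. RPL35 rose by 0.41 (adjusted p = 0.0344; 0.07 and not called with loess offsets, and kept in 1 of the 6 fits with a library left out), while RPL26 stood at 0.25 (adjusted p = 0.129), or -0.08 with loess offsets. RPL31 (chr2:101001613-101008765) had 44.8, 39.0 and 55.4 normalised CPM with DMSO and 57.0, 49.0 and 46.3 with OICR-9429. The groups overlapped, and its fold change was 0.13 (SE 0.14, adjusted p = 0.494), a value that turned to -0.06 with library totals and -0.18 with loess offsets.

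At the interface with the small subunit lie RPL23, RPL24, RPL30 and RPL41, and the regions of all 4 were called higher with TMM. RPL41 encodes the smallest ribosomal protein, a short helix that bridges the subunits. Its region (chr12:56115296-56121070) held 33.9, 31.0 and 41.8 normalised CPM with DMSO and 59.1, 51.4 and 60.8 with OICR-9429. The lowest treated library stood clear of the highest control. RPL41 had the largest log2 fold change of the 44, 0.68 (SE 0.14, adjusted p = 0.00424), a fold of 1.61. It was 0.37 with loess offsets (adjusted p = 0.0154) and 0.49 with library totals, and was called with each library left out. The region also touched an end of ZC3H10. RPL23, RPL24 and RPL30 rose by 0.38, 0.35 and 0.41 (adjusted p = 0.0373, 0.0396 and 0.0199), with loess values of 0.05, 0.02 and 0.08 that were not called. Those of RPL23 and RPL24 were kept in 1 of the 6 fits with a library left out, and that of RPL30 in 2.

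**Figure D4:**
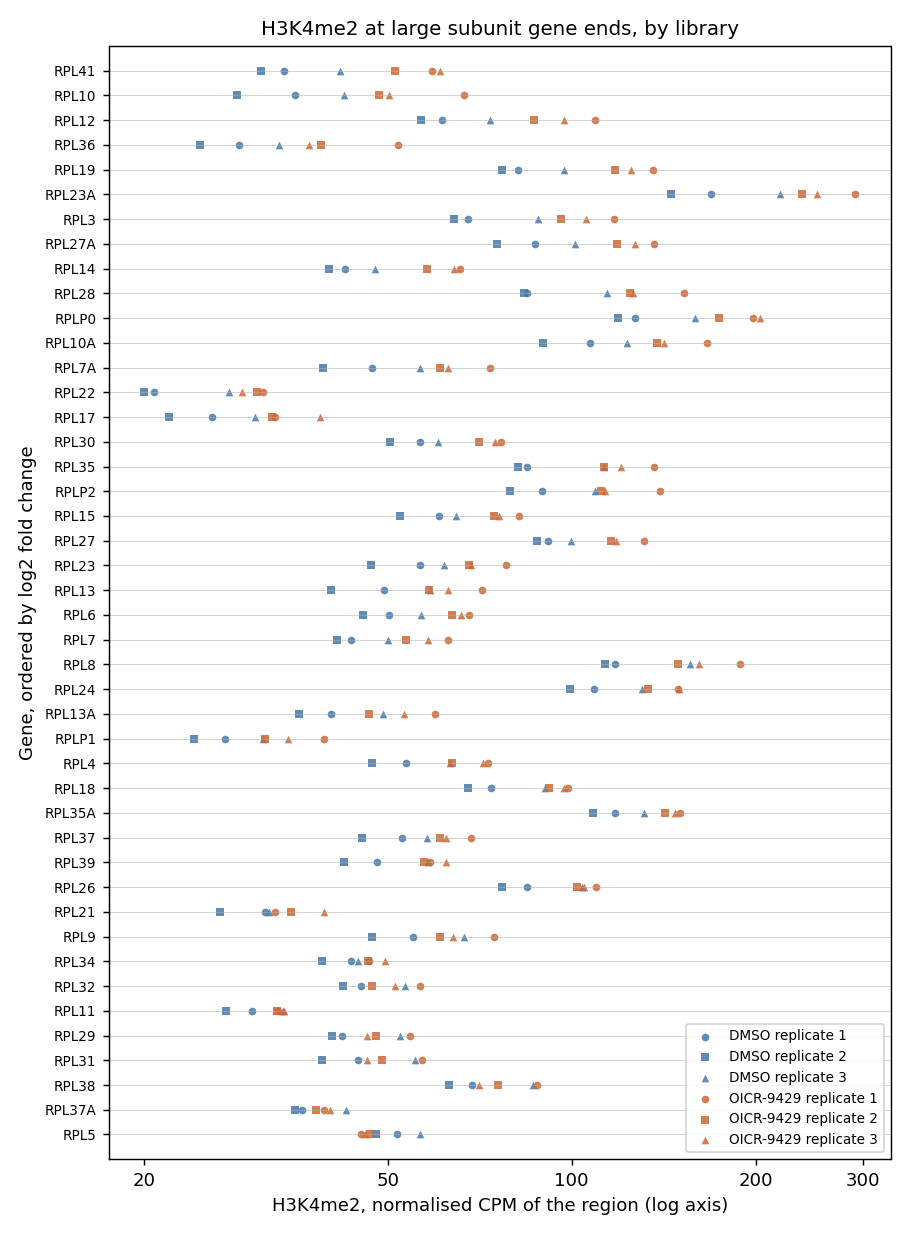
Normalised CPM of the representative region of each large subunit gene (x axis, log scale) in each library, with genes on the y axis ordered from the largest log2 fold change at the top (RPL41, 0.68) to the smallest (RPL5, -0.18). Blue symbols are DMSO and orange symbols OICR-9429 libraries; the blue square (DMSO replicate 2) is the lowest symbol in 43 of 44 rows.

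The remaining 23 genes have roles spread over the body of the subunit, and 11 of them were called higher. The largest fold change among them was that of RPL36, a small protein of the subunit surface (chr19:5689735-5696855), with 28.6, 24.6 and 33.2 normalised CPM against 52.0, 38.9 and 37.2. OICR-9429 replicate 1 stood apart from the other treated libraries. RPL36 rose by 0.57 (SE 0.15, adjusted p = 0.0147), and the call was lost with loess offsets (adjusted p = 0.097) and without DMSO replicate 1, DMSO replicate 2 or OICR-9429 replicate 1. RPL22, which has a close paralog in RPL22L1, had 20.8, 20.004 and 27.5 normalised CPM with DMSO and 31.3, 30.5 and 28.9 with OICR-9429 at its start (chr1:6196981-6200752). The groups did not overlap, and it rose by 0.41 (SE 0.14, adjusted p = 0.0369), a call kept in 1 of the 6 fits with a library left out and lost with loess offsets (0.20). Its other gene end held a weak region that was not called (log2 fold change -0.03, adjusted p = 0.922). 

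At the extremes of density, RPL10A (chr6:35467188-35475509) had 107, 89.9 and 123 normalised CPM with DMSO and 167, 138 and 142 with OICR-9429. The groups were apart, and it rose by 0.48 (adjusted p = 0.0157). RPL28 (chr19:55382052-55391498) had 84.6, 83.5 and 114 normalised CPM with DMSO and 152, 125 and 126 with OICR-9429 and rose by 0.51 (adjusted p = 0.0149). Neither did its groups overlap. Among the least dense, RPL7A (chr9:133341171-133351727) had 47.1, 39.3 and 56.6 normalised CPM with DMSO and 73.7, 60.9 and 62.8 with OICR-9429 and rose by 0.47 (adjusted p = 0.0241). RPL13 (chr16:89552426-89566201) had 49.3, 40.4 and 58.7 normalised CPM with DMSO and 71.3, 58.5 and 62.7 with OICR-9429, with overlapping groups and a fold change of 0.38 that missed the threshold (adjusted p = 0.0546). With loess offsets RPL10A, RPL28 and RPL7A stood at 0.14, 0.18 and 0.14 and were not called (adjusted p = 0.182, 0.137 and 0.252). All 3 calls were also lost without DMSO replicate 1 or DMSO replicate 2, and that of RPL7A without OICR-9429 replicate 1.

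The smallest positive values belonged to RPL37A, RPL38, RPL31, RPL29 and RPL11. RPL37A had 36.2, 35.3 and 42.7 normalised CPM with DMSO and 39.4, 38.2 and 40.3 with OICR-9429 (chr2:216497439-216504549). Every treated value lay inside the control range. The log2 fold change was 0.05 (SE 0.12, adjusted p = 0.805), and -0.25 with loess offsets (adjusted p = 0.059). RPL38, whose loss in mice lowers the translation of a subset of Hox messenger RNAs, had 68.6, 63.1 and 86.6 normalised CPM with DMSO and 87.8, 75.7 and 70.5 with OICR-9429 (chr17:74204082-74214133). The groups overlapped (log2 fold change 0.10, SE 0.14, adjusted p = 0.596). RPL29 (chr3:51992148-51999051) had 42.2, 40.5 and 52.5 normalised CPM with DMSO and 54.3, 47.9 and 46.2 with OICR-9429, also with overlap, and was at 0.14 (SE 0.13, adjusted p = 0.45). The values of RPL37A, RPL38 and RPL29 turned to -0.15, -0.09 and -0.06 with library totals. RPL6 was called at its upstream end by PTPN11 (0.37, adjusted p = 0.0308; 0.05 and not called with loess offsets), while the region that holds its listed start sites stood at 0.08 (adjusted p = 0.675), and at -0.12 with library totals and -0.22 with loess offsets.

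**Figure D5:**
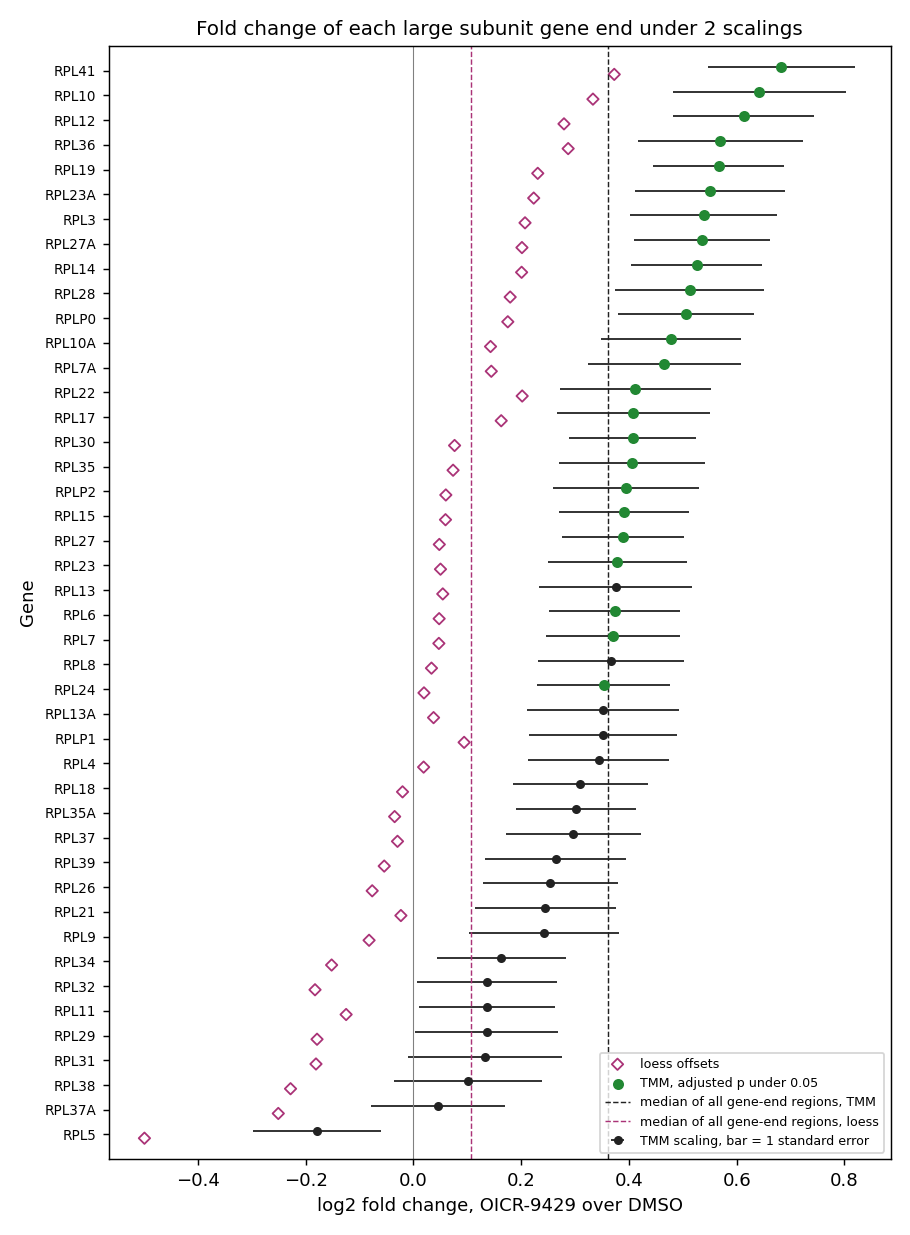
Log2 fold change of OICR-9429 over DMSO (x axis) at the representative region of each large subunit gene (y axis). Filled circles are TMM values with 1 standard error, green where the adjusted p is under 0.05, open diamonds are values with loess offsets, and dashed lines are the medians of all gene-end regions (0.36 and 0.11). With loess offsets 15 of the 44 diamonds lie under 0.

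The ranks of the genes were similar under both scalings: across the 44 regions the rank correlation between TMM and loess fold changes was 0.98. Fold change had a rank correlation of 0.33 with density in DMSO and of -0.02 with width. The 44 points share the same 6 libraries and are given as a description. RPL41, RPL12 and RPL19 were the 3 genes called with TMM, with loess offsets and with each library left out.

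Many of the regions were not private to a ribosomal protein gene. Of the 48 gene-end regions 30 also touched an end of another protein-coding gene. Of these 30, 18 were called higher (median log2 fold change 0.38), against 6 of the 18 regions that touched no other gene end (median 0.28). Among all gene-end regions 48.2% were called higher, and 64.7% of those in the top decile of abundance. That decile held 26 of the 30 shared regions and 8 of the 18 others. The difference in calls was not tested, and the shared regions were also wider, with a median of 9439.5 bp against 6614.5 bp. Of the 27 genes with a pyrimidine start 13 were called (median 0.35), and of the 10 without 7 (median 0.39). That difference was not tested either, and these counts too stand beside the 48.2% of all gene-end regions. They use the representative region, which held no listed start site for RPL6 and RPL17, both called and without the motif. The same was true of RPL38, which has the motif and was not called. The RPL6 region that holds its start sites was not called (0.08).

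Outside the gene ends there were few regions, though not all were weak: 3 of the 14 tested flanking regions lay in the top decile of abundance. The densest, beside RPL19 at an end of STAC2 (chr17:39209065-39210374), reached 15.3 normalised CPM per kb with DMSO, above every representative region of the 44 genes, and was not called (log2 fold change 0.06, adjusted p = 0.764). The 1 inner region, in RPL31 (chr2:101010573-101011452), was weak, with 20, 16 and 16 counts in the DMSO replicates and 4, 6 and 8 in the OICR-9429 replicates. The groups did not overlap. It fell by 1.46 on the log2 scale (SE 0.38, adjusted p = 0.0129), in a class of regions inside genes of which 18.5% were called lower and 7.31% higher. Of 14 tested flanking regions 2 were called higher and 0 lower, against 6.99% and 16.1% of regions neither at a gene end nor inside a gene. The one beside RPL7A lay at gene ends of SURF1, SURF2 and SURF4 (log2 fold change 0.53, adjusted p = 0.0183; 0.21 and not called with loess offsets).

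Genes for the rest of the ribosome were counted in the same way, beside 48.2% higher and 3.43% lower among all gene-end regions (7.01% and 4.05% with loess offsets). Of 32 tested gene-end regions of small subunit protein genes 22 were called higher and 0 lower (median 0.42; 3 and 4 with loess offsets). Of 58 regions of assembly and export factors of the large subunit 37 were higher and 1 lower (median 0.38; 6 and 2 with loess offsets). Large subunit genes outside the 44 and paralogs had 5 higher and 0 lower among 9 (median 0.33; 1 and 0 with loess offsets). Among them RPL39L, the paralog of RPL39 expressed in testis and some tumours, rose by 0.59 (adjusted p = 0.00911; 0.32 and adjusted p = 0.0462 with loess offsets), from 26.7 ± 3.67 to 40.3 ± 5.29 normalised CPM. RPL36A rose by 0.38 (adjusted p = 0.0435), RPL22L1 by 0.40 (adjusted p = 0.0266), RPL3L by 0.43 (adjusted p = 0.0342) and RPL36AL by 0.32 (adjusted p = 0.0469). With loess offsets none of these 4 was called, at 0.16, 0.07, 0.18 and -0.02 (adjusted p = 0.306, 0.601, 0.258 and 0.828). RPL7L1 at 0.14 (-0.20 with loess offsets) and RPL26L1 at -0.29 were not called (adjusted p = 0.414 and 0.226), and RPL10L had no region. None of the gene-end regions of these lists was shared with the 44 genes.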

How the data were processed

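The authors deposited 1 table of raw counts, whole numbers with no normalisation, with a row for each of 54942 regions and a column for each of 6 ChIP libraries. Per the submitters' processing notes, Bowtie, MACS2, deepTools, featureCounts, DESeq2, hg38 and dm6 were used. Tool versions, the handling of duplicates and of reads with several matches, and how peaks were merged were not given in the sources. Ribosomal protein genes have many processed pseudogenes, which such handling can affect. The 7 input libraries and the untreated ChIP library were not analysed here.

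Groups and replicate numbers came from the titles, whose numbers 1 to 3 stand for columns numbered 2 to 4 in the table, per the labels. Tests used edgeR 4.0.16 in R 4.3.3 (filterByExpr, TMM, robust quasi-likelihood fit, no covariate), with Benjamini-Hochberg adjustment over 51156 regions and a threshold of 0.05. SE is the size of the log2 fold change over the square root of F. Gene spans and promoters came from RefSeq tables of GRCh38.p14, the assembly of hg38, which list no exons. A region touching several genes counted once.

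All 44 genes could be named, and some results on other genes are not reported here. Values per library were given for the 6 largest and 6 smallest fold changes, the 4 highest and 4 lowest densities, and genes picked for their role. Members, roles and lists were chosen with earlier results of these data known. Other settings were 3 scalings (loess span 0.3), 2 count filters, DESeq2 1.42.0, a replicate block, a stricter p, a minimum fold of 1.2, non-robust estimation, other choices of region, and each library left out. The scripts were tested on simulated data.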

Additional observations from a re-analysis of the deposited data

How the results depend on the processing

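The number of the 48 gene-end regions called higher, 24 with TMM, was 12 with library totals, 3 with loess offsets, 3 in a test against a fold of 1.2, 5 at an adjusted p under 0.01, 6 among regions touching no other protein-coding gene end, and between 4 and 36 with 1 library left out. Under the other settings run it stayed between 16 and 26. The number lower, 0 with TMM, was 1 with library totals, 1 with loess offsets and 1 with a mean count of at least 50, each time RPL5, and 0 with each library left out. Their median log2 fold change, 0.37 with TMM, was 0.18 for library totals and 0.0490 for loess offsets, and ran from 0.22 to 0.47 over the fits that left out 1 library. The difference in share of counts, 0.0444 percentage points, was 0.00603 over regions touching no other gene end and 0.0335 to 0.0576 with 1 library left out. The inner region of RPL31 was called lower in 1 of 1 case with each library left out (log2 fold change -1.83 to -1.19) and 0 of 1 at an adjusted p under 0.01, and a mean count of at least 50 left it untested. The stricter p and the test against a fold ask for more by construction. The count and the share over regions touching no other gene end rest on only 18 of the 48 regions, also by construction. The cause of the other shifts was not tested.

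Among genes given with values per library, signs changed for 5, none of them called with TMM. With library totals and loess offsets the values were -0.0596 and -0.13 (RPL11), -0.0589 and -0.18 (RPL29), -0.0601 and -0.18 (RPL31), -0.15 and -0.25 (RPL37A), and -0.0924 and -0.23 (RPL38). RPL37A was also -0.0252 with no count filter and -0.0582 with a mean count of at least 50. With 1 library left out RPL29 ran from -0.00474 to 0.26, RPL31 from -0.0319 to 0.28, RPL37A from -0.0612 to 0.14 and RPL38 from -0.0595 to 0.25. Genes named more briefly also changed sign with loess offsets: RPL26 (-0.0766), RPL39 (-0.0543), the RPL6 region at its start sites (-0.22, and -0.12 with library totals), the outer RPL22 region (0.24), RPL7L1 (-0.20) and RPL36AL (-0.0227), of which RPL36AL was called with TMM.

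For samples with the same replicate number, the correlations of their deviations from the group means over tested regions were -0.19, 0.21 and -0.22. For different numbers they ran from -0.31 to 0.36. Deviations from a mean of 3 libraries are tied to each other, so these values do not settle whether the numbers pair the samples. With the number as a block, 20 gene-end regions passed as higher and 0 as lower (median 0.38). RPL7, RPL22, RPL23 and RPLP2 were then not called. Depth limits the weak regions most: the inner RPL31 region and the outer RPL10 region rest on 3 to 20 counts per library.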

Other observations

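With loess offsets, 4 regions of small subunit genes were called lower. Taking the strongest region of each gene, these included RPS24 (log2 fold change -0.38, adjusted p = 0.00552), RPS10 (-0.33, adjusted p = 0.0132) and RPS15A (-0.31, adjusted p = 0.0275). With TMM the values of these 3 genes were -0.05, 0.00333 and -0.02, not called. RPS24 stood at 61.1, 58.3 and 68.4 normalised CPM with DMSO and at 63.0, 59.3 and 59.6 with OICR-9429, and the groups overlapped. These genes were singled out after their values were seen.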
